A study of Mus musculus with 9 samples.

Results

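The BCL2 family decides whether a cell keeps the outer membrane of its mitochondria intact or opens it and dies by apoptosis. Survival proteins such as BCL2, BCL-XL and MCL1 hold the pore-forming effectors BAX and BAK in check, and BH3-only proteins such as BIM and BID bind the survival proteins, and some of them the effectors, and so favour opening. Senescent cells are known for resisting apoptosis, and drugs that block BCL2, BCL-XL and BCL-w can kill some types of them. The 10 genes described here were fixed by name, with earlier results of these data known. They are the survival genes Bcl2, Bcl2l1 (BCL-XL), Bcl2l2 (BCL-w) and Mcl1, the effector genes Bak1 (BAK) and Bok, and the BH3-only genes Bcl2l11 (BIM), Bid, Bad and Bmf. All 10 are among the 24062 genes of the count table, and all 10 passed the filter on low counts that left 14572 genes to test.

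The series measured RNA in mouse embryonic fibroblasts of the C57BL/6 strain, primary connective tissue cells in culture. A lentivirus gave them the cell cycle inhibitor p21 (p21 cells, 3 libraries) or p16 (p16 cells, 3 libraries), or was the empty vector (control cells, 3 libraries), and cells were harvested at day 10. Control libraries carry the empty vector in their titles and yet have the cell status senescent among their labels. Nothing in the labels names the vector's promoter or ties replicates to separate embryos or cultures, and each p-value therefore reflects library-to-library spread alone. Part of that spread may be technical, though replicate 3 of each group differed from the others in sex-linked transcripts, given below.

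Totals ran from 56864342 to 76054820 counts a library. The gene that each virus carried was higher in every library given it, with Cdkn1a (p21) at 1085 to 1218 CPM in p21 cells against 316.7 to 399.1 CPM in control cells, and Cdkn2a (p16) at 944.4 to 1069 CPM in p16 cells against 59.6 to 68.8 CPM in control cells. CPM are counts scaled to a common library total after TMM, a scaling that evens out composition. All 10 fibroblast markers were tested, and their sum was 51520 to 55100 CPM in p21 cells, 46900 to 53930 CPM in p16 cells and 35210 to 50850 CPM in control cells. Fn1 (fibronectin) carried the higher sum, at 22300 ± 471 CPM in p21 cells, 17570 ± 1717 CPM in p16 cells and 12450 ± 2153 CPM in control cells (SD, n = 3 each). The collagen genes Col1a1, Col1a2 and Col3a1 did not pass in any comparison, and Pdgfra fell in p21 cells to 0.422 of its control level (adjusted p = 0.00448 by edgeR). The summed level of 17 macrophage markers was 29.5 to 52.7 CPM in p21 cells, 12.1 to 17.4 CPM in p16 cells and 14.7 to 18.1 CPM in control cells, with 5 of them, Ptprc, Spi1, Tyrobp, Fcer1g and Aif1, under 1 CPM in every library. Of the 16 that could be tested, 11 rose in p21 cells against control cells and 0 changed in p16 cells by edgeR (1 at an unadjusted p under 0.05). Of all 14572 genes tested, 3587 had such an unadjusted p in p16 against control cells. Under 1 CPM in every library were 3 of 6 endothelial markers (Pecam1 and Cdh5 among them), 4 of 5 epithelial markers (Epcam and Cdh1 among them) and 3 of 5 markers of nerve and glia (Sox10 among them). The endothelial sum was 5.38 to 7.84 CPM in p21 cells, 5.64 to 7.63 CPM in p16 cells and 3.93 to 5.53 CPM in control cells, and its member Emcn rose in p21 cells (2.36-fold, adjusted p = 0.0127) and in p16 cells (2.83-fold, adjusted p = 0.0252). The epithelial sum, mostly Krt18, was 8.14 to 9.52 CPM in p21 cells, 6.6 to 8.36 CPM in p16 cells and 4.57 to 10.1 CPM in control cells. The sum for nerve and glia, mostly Tubb3, was 55.7 to 86.9 CPM in p21 cells, 59.3 to 90.4 CPM in p16 cells and 53.7 to 81.6 CPM in control cells. The part of these markers in the results was not tested. Of 5 skeletal muscle markers 4 were under 1 CPM in every library, and the sum, nearly all of it Acta1, was 287.3 to 395.3 CPM in p21 cells, 193.2 to 207.6 CPM in p16 cells and 99.1 to 136.0 CPM in control cells. Replicate 3 of each group stood apart in sex-linked transcripts: Xist was at 157.8 to 396.8 CPM in those libraries and at most 1.34 CPM in the others. Values without replicate 3 are given below where they change a call.

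Between p21 and control cells, the members called in all 14 alternative fits were Bcl2l2, Bid and Bok, and the stretch before the start of each is printed here, with that of Bcl2l11, the BIM gene, a known target of FOXO factors. The sequences are RefSeq's for GRCm38.p6 (mm10), 5′ to 3′ on the strand of the gene, and end before the first base that RefSeq or GENCODE M21 places in the gene. Capitals mark GC boxes (GGGCGG, or CCGCCC on the other strand) and the FOXO motif GTAAACA. Bcl2l2 (BCL-w) is at chr14:54883175-54883376, plus strand. Bid is at chr6:120916854-120917074, minus strand. Bok is at chr1:93685325-93685574, plus strand. Bcl2l11 (BIM) is at chr2:128125788-128126037, plus strand.
Bcl2l2: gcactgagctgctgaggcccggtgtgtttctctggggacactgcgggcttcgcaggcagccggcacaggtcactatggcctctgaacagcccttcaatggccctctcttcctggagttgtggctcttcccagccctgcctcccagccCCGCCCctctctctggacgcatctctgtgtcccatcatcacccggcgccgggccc
Bid: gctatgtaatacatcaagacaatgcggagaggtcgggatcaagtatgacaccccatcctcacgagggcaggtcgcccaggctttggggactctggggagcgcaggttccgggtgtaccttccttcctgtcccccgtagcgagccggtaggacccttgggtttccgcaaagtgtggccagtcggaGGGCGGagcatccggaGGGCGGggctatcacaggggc
Bok: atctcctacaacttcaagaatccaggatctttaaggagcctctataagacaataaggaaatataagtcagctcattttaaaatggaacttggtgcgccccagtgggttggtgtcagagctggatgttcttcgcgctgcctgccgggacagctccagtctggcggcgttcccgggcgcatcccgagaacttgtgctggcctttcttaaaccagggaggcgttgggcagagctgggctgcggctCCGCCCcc
Bcl2l11: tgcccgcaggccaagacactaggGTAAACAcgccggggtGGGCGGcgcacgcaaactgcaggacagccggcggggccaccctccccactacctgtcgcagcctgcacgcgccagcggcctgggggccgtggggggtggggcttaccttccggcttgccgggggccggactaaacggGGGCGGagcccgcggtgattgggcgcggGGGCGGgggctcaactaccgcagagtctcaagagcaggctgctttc

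In windows of 250 bases before each start that RefSeq lists, GGGCGG stood on either strand in 8 of the 16 windows of the members, spread over 7 of the 10 genes, and in 32.7% of all 32851 windows. Only Bcl2l11 held GTAAACA, on the plus strand with its first base at position -227 from the start, a motif in 3.17% of all windows. None of the 16 windows of the members held the E2F motifs TTTCCCGC or TTTGGCGC on either strand (1.3% of all windows). A window of Bcl2 and a window of Mcl1 held TTTGAA, the cell cycle genes homology region (CHR), on either strand (16% of all windows). The motifs share no overlapping match in the printed stretches. The matches describe these letters only and say nothing of binding.

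The levels of the members were compared per length, as CPM per kb of the union of annotated exons. Mcl1 and Bak1 were the most abundant, at 40.8 ± 0.274 and 41.1 ± 3.36 CPM per kb in p21 cells, 41.9 ± 1.16 and 37.4 ± 2.73 CPM per kb in p16 cells, and 41.8 ± 0.531 and 38.2 ± 4.25 CPM per kb in control cells (SD, n = 3 each). Bok was next, at 26.7 ± 0.85 CPM per kb in p21 cells, 31.0 ± 1.48 CPM per kb in p16 cells and 31.9 ± 0.402 CPM per kb in control cells. Bcl2l1 and Bcl2l2 followed in the order. Of the 4 BH3-only members Bad was highest, at 9.45 CPM per kb in p21 cells, 8.87 in p16 cells and 8.62 in control cells, then Bid. Pmaip1, a BH3-only gene outside these members, is given below in CPM. Bcl2, the gene the family is named after, was the least abundant survival member, at 1.47 ± 0.144 CPM per kb in p21 cells, 1.42 ± 0.107 CPM per kb in p16 cells and 1.21 ± 0.0299 CPM per kb in control cells, in the range of Bcl2l11 at 1.37 ± 0.254, 1.4 ± 0.157 and 1.77 ± 0.2 CPM per kb in the same groups. Bmf was lowest, at 0.201, 0.195 and 0.263 CPM per kb, from 49 to 154 reads a library.

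**Figure D1:**
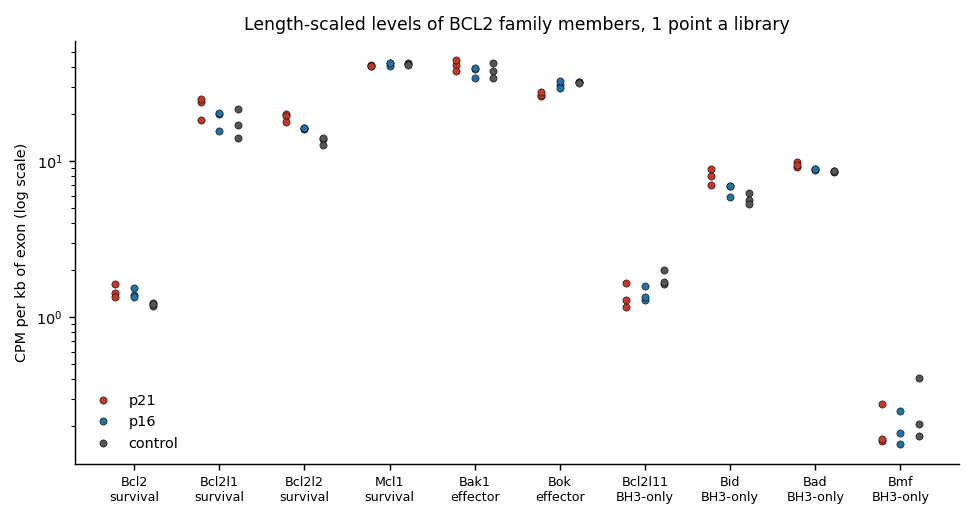
CPM per kb of exon (log scale) of each member, 1 point a library, for p21, p16 and control cells from left to right within a gene. Mcl1, Bak1 and Bok lie between 26.1 and 44.5 CPM per kb, Bcl2 and Bcl2l11 between 1.16 and 2.0, and Bmf below all others.

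Some neighbours in this order did not differ beyond the spread between libraries. Mcl1 and Bak1 overlapped in p21 and in control cells, Bcl2l1 and Bcl2l2 overlapped in p21 and in p16 cells, and Bcl2 and Bcl2l11 overlapped in p21 and in p16 cells. In control cells Bcl2l11 lay above Bcl2 in every library. With the longest annotated transcript as the length, Bcl2l1 ranked above Bok in p21 cells and Bok above Bak1 in p16 and control cells, and Bcl2l11 ranked above Bcl2 in p21 and p16 cells too. The order between Bak1, Bok and Bcl2l1, and between Bcl2 and Bcl2l11, thus depends on the length used.

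Mcl1 made up 48.9 ± 2.84% of the summed length-scaled level of the 4 survival members in p21 cells, 53.6 ± 2.3% in p16 cells and 56.5 ± 3.03% in control cells. Its share depended on the length used. With the longest transcript it was 39.1 ± 3.0%, 43.7 ± 2.64% and 46.3 ± 3.5% in the same groups. The share of Bcl2l2 was 22.5 to 23.1% in p21 libraries, 20.0 to 21.5% in p16 libraries and 17.6 to 18.8% in control libraries, so the ranges of the 3 groups did not overlap. Per kb of the longest transcript it was 20.7 to 21.8% in p21 libraries, 18.9 to 20.9% in p16 libraries and 16.5 to 18.1% in control libraries, with overlap between p21 and p16 cells. The sum itself was 86.1, 86.3 and 78.2 CPM per kb in p21 cells, 79.8, 78.6 and 76.1 CPM per kb in p16 cells and 79.1, 74.1 and 69.3 CPM per kb in control cells, with overlap between p21 and control cells. The sum of the 4 BH3-only members was 20.0, 18.6 and 18.3 CPM per kb in p21 cells, wholly above the other groups. It was 17.2, 17.3 and 16.6 CPM per kb in p16 cells and 16.6, 16.2 and 16.3 CPM per kb in control cells. The ratio of the survival sum to the BH3-only sum lay between 4.27 and 4.65 in p21 cells, 4.54 and 4.65 in p16 cells and 4.25 and 4.76 in control cells, and the ranges overlapped. Per kb of the longest transcript it was 3.32 to 3.75, 3.475 to 3.64 and 3.21 to 3.76 in the same groups. The BH3-only sum leaves out Bbc3 and Pmaip1, which are outside the members. Pmaip1 stood at 127.7 CPM in p21 and 86.1 CPM in control cells, so the ratio holds for these members only. These sums and shares are descriptions and were not tested.

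**Figure D2:**
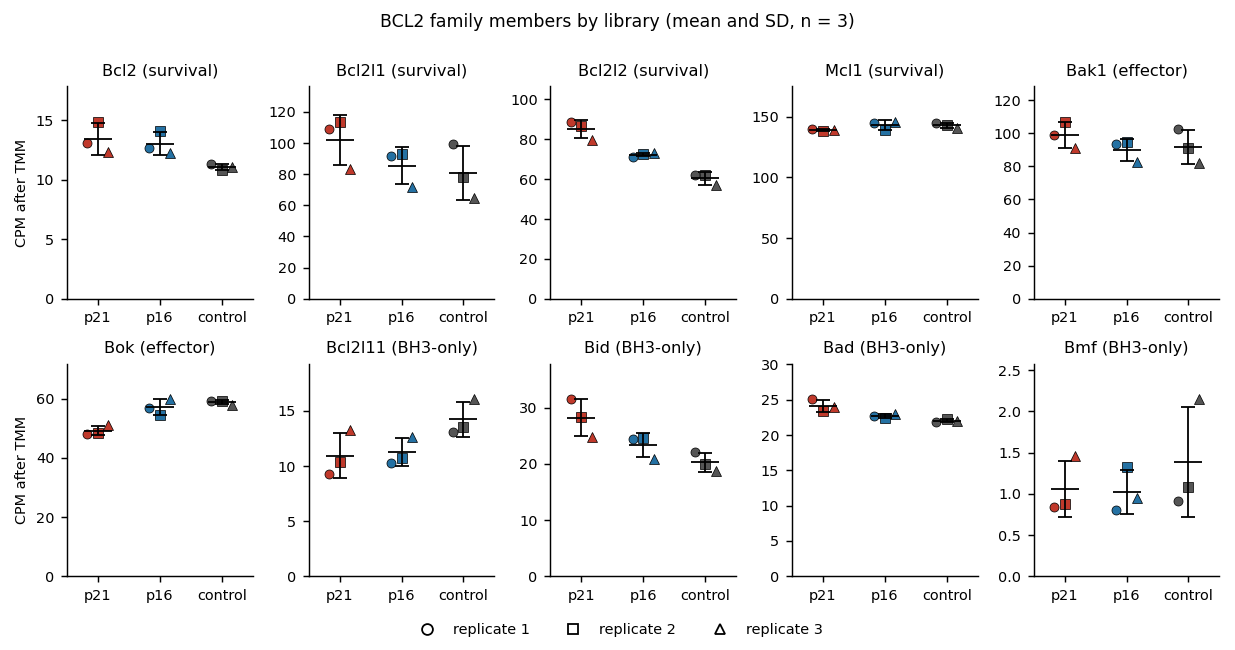
TMM-scaled CPM of each member in the 9 libraries, with the mean and SD of each group (n = 3) and the replicate number as the marker. Bcl2l2 is highest in p21, lower in p16 and lowest in control libraries, Mcl1 stays between 138.3 and 145.9 CPM, and replicate 3 (triangles) is the lowest point of every group for Bcl2l1, Bak1 and Bid.

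The comparison of p21 cells with control cells asked which members p21 overexpression changed. Bcl2, Bcl2l2, Bid and Bad rose and Bok fell, each by less than 1.5-fold, while Bcl2l1, Mcl1, Bak1, Bcl2l11 and Bmf did not pass at an adjusted p under 0.05. Thus 4 of 10 members were called higher, against 19.3% of all genes tested, and 1 lower, against 20.7% (39.9% in either direction). The p21 libraries lay wholly above the control libraries for Bcl2, Bcl2l2, Bid and Bad, as for 24% of all genes, and wholly below for Mcl1 and Bok, as for 25.7% (49.8% in either direction). The median log2 fold change of the 10 was 0.12, against -0.011 over all genes tested. In bulk RNA, fewer cells of a kind and less RNA per cell cannot be told apart.

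**Figure D3:**
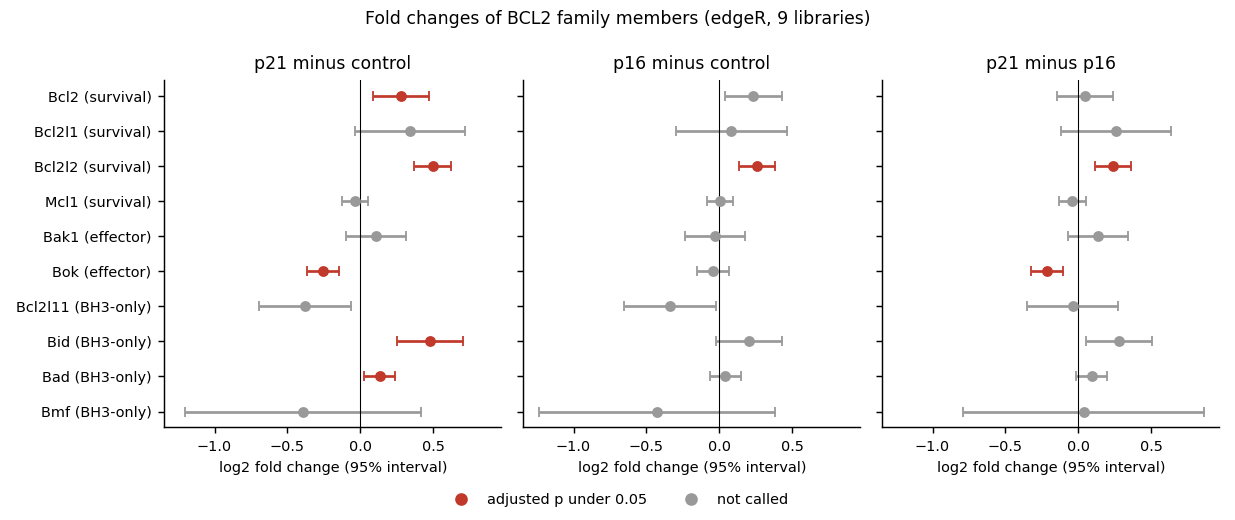
Log2 fold change of each member with its 95% interval from the edgeR fit of 9 libraries, with p21 minus control on the left, p16 minus control in the middle, p21 minus p16 on the right. Red points passed at an adjusted p under 0.05: Bcl2, Bcl2l2, Bok, Bid and Bad in the left panel, Bcl2l2 in the middle, Bcl2l2 and Bok on the right.

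Among the survival genes, Bcl2l2 (chromosome 14, 54883377 to 54888234, plus strand) encodes BCL-w, a close relative of BCL2. It stood at 88.9, 86.6 and 79.9 CPM in p21 cells, against 62.0, 62.3 and 56.8 CPM in control cells. Every p21 library lay above every control library. Bcl2l2 was 1.41-fold higher (log2 fold change 0.50 ± 0.0556 SE, adjusted p = 0.00015 by edgeR), and it passed in all 14 alternative fits. Of its exon length 13.3% is shared with Gm20521 on the same strand, a gene with no row in the count table used here.

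Bcl2 (chromosome 1, 106538178 to 106714274, minus strand) stood at 13.1, 14.9 and 12.3 CPM in p21 cells, against 11.4, 10.8 and 11.1 CPM in control cells. The libraries did not overlap, and p21 replicate 2 was the highest. Bcl2 was 1.21-fold higher (log2 fold change 0.28 ± 0.0865 SE, adjusted p = 0.0289 by edgeR). It no longer passed when p21 replicate 1 (adjusted p = 0.0544) or 2 (0.102) or control replicate 2 (0.0865) or 3 (0.0583) was left out.

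Bcl2l1 (chromosome 2, 152780668 to 152831728, minus strand) encodes BCL-XL, and its counts do not separate the long survival form from the short form, which favours death. It stood at 108.9, 113.8 and 83.5 CPM in p21 cells, against 99.4, 78.1 and 64.7 CPM in control cells. The groups overlapped, and replicate 3 was the lowest library of each. At 1.26-fold (95% interval 0.973 to 1.64) Bcl2l1 did not pass (adjusted p = 0.139 by edgeR). It did with the replicate block (adjusted p = 0.00191), with a term for replicate 3 (0.00209), with replicates 1 and 2 only (0.0285) and without control replicate 1 (0.0271). Mcl1 (chromosome 3, 95658788 to 95663176, plus strand), whose protein turns over quickly, stood at 140.2, 138.3 and 139.3 CPM in p21 cells against 144.4, 143.2 and 140.9 CPM in control cells. The p21 libraries were all lower, by a small margin, and Mcl1 did not pass (ratio 0.975, 95% interval 0.917 to 1.04, adjusted p = 0.495).

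Of the effectors, Bok (chromosome 1, 93685660 to 93695764, plus strand) encodes a relative of BAK that is found largely at the endoplasmic reticulum. It stood at 48.1, 48.5 and 51.0 CPM in p21 cells, against 59.2, 59.1 and 57.9 CPM in control cells. No library overlapped. Bok was the member that fell, to 0.837 of its control level (log2 fold change -0.26 ± 0.0484 SE, adjusted p = 0.00256 by edgeR), and it passed in all 14 alternative fits. Bak1 (chromosome 17, 27019810 to 27029009, minus strand), which encodes the mitochondrial pore former BAK, stood at 99.1, 107.0 and 90.8 CPM in p21 cells against 102.4, 91.3 and 82.0 CPM in control cells. The groups overlapped and Bak1 did not pass (ratio 1.08, 95% interval 0.934 to 1.24, adjusted p = 0.383). Parts of its exons overlap Ggnbp1, which stayed under 1 CPM.

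Of the BH3-only genes, Bid (chromosome 6, 120891930 to 120916853, minus strand) encodes the link between death receptors and mitochondria, activated when caspase-8 cuts it. It stood at 31.5, 28.4 and 24.8 CPM in p21 cells, against 22.1, 19.9 and 18.8 CPM in control cells, with no overlap and with replicate 3 lowest in both. Bid was 1.39-fold higher (log2 fold change 0.48 ± 0.101 SE, adjusted p = 0.0047 by edgeR) and passed in all 14 alternative fits. The kit does not mark strand, and 17.7% of the annotated exon length of Bid overlaps Bcl2l13 on the other strand. Bcl2l13 did not pass (ratio 0.939, adjusted p = 0.321).

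Bad (chromosome 19, 6941861 to 6951899, plus strand), whose protein is kept inactive by phosphorylation and 14-3-3 binding, stood at 25.1, 23.4 and 24.0 CPM in p21 cells, against 21.9, 22.2 and 22 CPM in control cells. The libraries did not overlap, but the difference was small, at 1.1-fold (log2 fold change 0.13 ± 0.0468 SE, adjusted p = 0.0474 by edgeR). Only 3 of 14 alternative fits kept the call, and adjusted p-values over all 14 ran from 0.034 to 0.148. The call was lost with replicates 1 and 2 only (adjusted p = 0.144) and with the replicate block (0.0609). Leaving out p21 replicate 1 (adjusted p = 0.148), 2 (0.0523) or 3 (0.0756), or control replicate 1 (0.0744), 2 (0.092) or 3 (0.0814), ended it. Of its exon length 20.5% overlaps Gpr137 on the other strand, which did not pass (ratio 1.09, adjusted p = 0.202).

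Bcl2l11 (chromosome 2, 128126038 to 128162547, plus strand) encodes BIM, which binds all of the main survival proteins. It stood at 9.31, 10.3 and 13.2 CPM in p21 cells, against 13.1, 13.5 and 16.1 CPM in control cells. Replicate 3 was the highest library of each group, and p21 replicate 3 overlapped control replicate 1, whereas p21 replicates 1 and 2 lay below all control libraries. The ratio was 0.769 (95% interval 0.619 to 0.956, adjusted p = 0.0552 by edgeR), just short of the threshold. It passed with the replicate block (adjusted p = 0.00107), with a term for replicate 3 (0.000901), with replicates 1 and 2 only (0.00724) and without p21 replicate 3 (0.0109). It also passed by DESeq2 (0.0325) and with library sizes alone as the scaling (0.0475). Bmf (chromosome 2, 118528757 to 118549687, minus strand), a BH3-only gene of low level here, stood at 0.84, 0.876 and 1.45 CPM in p21 cells and 0.913, 1.09 and 2.15 CPM in control cells. Its interval ran from 0.434 to 1.34 (adjusted p = 0.417), and control replicate 3 was the highest library.

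The comparison of p16 cells with control cells asked the same of p16. Bcl2l2 rose, and no other member passed. Thus 1 of 10 members was called higher, against 3.57% of all genes tested, and 0 lower by edgeR, against 3.65% (7.22% in either direction). The libraries of p16 cells lay wholly above the control libraries for Bcl2, Bcl2l2 and Bad, as for 13.6% of all genes, and wholly below for Bcl2l11, as for 15.1% (28.7% in either direction). At an unadjusted p under 0.05 there were 3 members, Bcl2, Bcl2l2 and Bcl2l11, beside 3587 of all 14572 genes tested. DESeq2 called 0 members lower too. The median log2 fold change of the 10 was 0.023, against -0.01 over all genes tested. Both this comparison and that of p21 rest on the same 3 control libraries.

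Bcl2l2 stood at 71.3, 72.6 and 73.0 CPM in p16 cells, against the 62.0, 62.3 and 56.8 CPM of control cells. It was 1.2-fold higher (log2 fold change 0.26 ± 0.0556 SE, adjusted p = 0.0253 by edgeR), without overlap. With replicates 1 and 2 only it did not pass (adjusted p = 0.0576). Nor did it when p16 replicate 1 (0.0684), 2 (0.0884) or 3 (0.0713) or control replicate 2 (0.055) or 3 (0.054) was left out. Its direction was the same in all 14 alternative fits, with log2 fold changes from 0.22 to 0.29.

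Bcl2 was at 12.7, 14.1 and 12.3 CPM in p16 cells, above all control libraries, yet did not pass (ratio 1.18, 95% interval 1.03 to 1.35, adjusted p = 0.133). Bcl2l11 was at 10.3, 10.8 and 12.7 CPM in p16 cells, below all control libraries, and did not pass either (ratio 0.791, 95% interval 0.637 to 0.982, adjusted p = 0.171). With the replicate number as a block, a pairing that the correlations cannot decide for replicates 1 and 2, Bcl2l11 was called lower (adjusted p = 0.00985). Bid, at 24.4, 24.7 and 20.9 CPM in p16 cells, was then called higher (ratio 1.15, adjusted p = 0.0366 with the block and 0.255 without). A term for replicate 3 gave the same calls (adjusted p = 0.00851 and 0.0448). With replicates 1 and 2 only, none of the members passed.

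Mcl1 at 145.1, 138.7 and 145.9 CPM and Bok at 56.9, 54.4 and 59.8 CPM in p16 cells overlapped their control libraries, with ratios of 1.0 (95% interval 0.943 to 1.07) and 0.971 (0.901 to 1.05). Bcl2l1 was at 91.9, 92.9 and 71.8 CPM and Bak1 at 93.3, 94.4 and 82.5 CPM, again with replicate 3 lowest, and neither passed (adjusted p = 0.815 and 0.889). Bad was at 22.7, 22.5 and 22.9 CPM, just above all control libraries (adjusted p = 0.647), and Bmf at 0.803, 1.32 and 0.945 CPM (adjusted p = 0.521).

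The comparison of p21 with p16 cells tests directly whether the effects of both inhibitors differ. Of the members, Bcl2l2 was 1.18-fold higher in p21 than in p16 cells (log2 fold change 0.24 ± 0.0555 SE, adjusted p = 0.0244 by edgeR) and Bok was at 0.862 of its p16 level (log2 fold change -0.21 ± 0.0484 SE, adjusted p = 0.0209). That is 1 of 10 called higher, against 6.19% of all genes tested, and 1 lower, against 6.64% (12.8% in either direction). The median log2 fold change of the 10 was 0.068, against -0.007 over all genes tested. The p21 libraries lay wholly above the p16 libraries for Bcl2l2, Bid and Bad, as for 17.5% of all genes, and wholly below for Bok, as for 18.5% (36% in either direction).

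These calls were not firm. That of Bcl2l2 was lost without p21 replicate 1 (adjusted p = 0.1) or 2 (0.0753) and without p16 replicate 1 (0.0876), 2 (0.0683) or 3 (0.0635), and that of Bok without p21 replicate 1 (0.0898) or 2 (0.0667) and without p16 replicate 1 (0.0644) or 3 (0.0818). Bid was 1.21-fold higher (95% interval 1.03 to 1.42) with no overlap and an adjusted p of 0.105. It passed with the replicate block (adjusted p = 0.00727), a pairing that the correlations cannot decide for replicates 1 and 2. It also passed with a term for replicate 3 (0.00819) and without p21 replicate 3 (0.044). Bcl2l1, at a ratio of 1.19 (95% interval 0.919 to 1.55, adjusted p = 0.355), passed with the block (0.0235) and the replicate 3 term (0.0246). Bcl2 and Bcl2l11 did not pass, with ratios of 1.03 (95% interval 0.902 to 1.18) and 0.973 (0.782 to 1.21), nor did Mcl1 (0.972, 0.914 to 1.03), Bak1 (1.1, 0.953 to 1.27), Bad (1.06, 0.99 to 1.15) or Bmf (1.02, 0.578 to 1.82).

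Members differed in how far replicate 3 stood from replicates 1 and 2. Bcl2l1 in replicate 3 was at 0.75 of the mean of replicates 1 and 2 in p21 cells, 0.778 in p16 cells and 0.728 in control cells. Bid was at 0.829, 0.852 and 0.893 and Bak1 at 0.881, 0.879 and 0.846 in the same groups. Bcl2l11 went the other way, at 1.35, 1.2 and 1.21. Mcl1 (1.0, 1.03 and 0.979) and Bad (0.991, 1.02 and 0.996) in replicate 3 were near the mean of replicates 1 and 2. The part of the sex-linked difference of these libraries in the values was not tested.

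**Figure D4:**
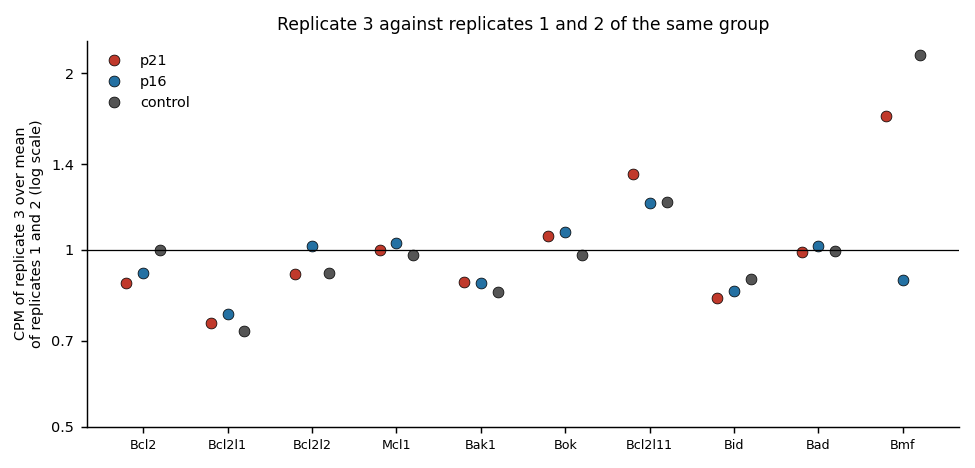
CPM of replicate 3 divided by the mean of replicates 1 and 2 of its group (log scale), for p21, p16 and control cells from left to right within a gene. Bcl2l1, Bak1 and Bid lie below 1 and Bcl2l11 above 1 in every group, and Mcl1 and Bad lie near 1.

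The rest of the pathway was read from 11 lists of 69 genes, 63 of them tested. In p21 cells 13 of these rose and 11 fell against control cells, near the 19.3% and 20.7% of all genes tested, with a median log2 fold change of -0.081. In p16 cells 0 rose by edgeR and 1 fell (3.57% and 3.65% of all genes tested), and DESeq2 called 3 higher and 3 lower. At an unadjusted p under 0.05 there were 14, beside 3587 of all 14572 genes tested. Between p21 and p16 cells 4 were higher and 3 lower in p21 cells (6.19% and 6.64% of all genes tested). With the replicate block 4 rose and 3 fell in p16 cells against control cells (1252 and 1221 of all 14572 genes), and 11 were higher and 6 lower in p21 than in p16 cells (1715 and 1781 of all genes).

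Among the family members outside the 10, Pmaip1, the BH3-only gene of NOXA, whose protein binds MCL1, rose 1.48-fold in p21 cells (127.7 ± 3.4 against 86.1 ± 13.4 CPM, SD, n = 3 each, adjusted p = 0.00218 by edgeR). Bbc3, the BH3-only gene of PUMA, fell to 0.727 of its control level (11.8 ± 0.359 against 16.2 ± 1.02 CPM, adjusted p = 0.000518) and was also lower in p21 than in p16 cells (ratio 0.837, adjusted p = 0.0312). Bax, the other main effector gene, was at 168.6 ± 12.0 CPM in p21 cells, 156.4 ± 9.1 CPM in p16 cells and 163.7 ± 14.6 CPM in control cells and passed in no comparison (adjusted p from 0.394 to 0.69). Of the 4 other survival genes only Bcl2a1b, of a group of near-identical copies known from blood cells, could be tested. It was at 0.165, 0.321 and 0.263 CPM in p21 cells, at 0, 0.0147 and 0.0581 CPM in p16 cells and at 0.0522, 0.0275 and 0 CPM in control cells, and was called higher in p21 cells (adjusted p = 0.0105 against control cells and 0.0303 against p16 cells). Macrophage markers rose in the same libraries, and their part in this was not tested. Of the atypical members, Becn1, an autophagy gene with a BH3 domain, was 1.15-fold higher in p21 than in control cells (adjusted p = 0.00415) and 1.1-fold higher than in p16 cells (adjusted p = 0.049), and Bnip3, the most abundant, did not pass.

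In the death receptor branch that leads to Bid, 5 of 7 genes rose in p21 cells and 1 fell, beside 19.3% and 20.7% of all genes tested, and the median log2 fold change was 0.26, against -0.011 over all genes tested. Cflar, which encodes the caspase-8 inhibitor c-FLIP, was 1.51-fold higher (129.0 ± 13.9 against 85.5 ± 13.5 CPM, adjusted p = 0.00482). The death receptor genes Fas and Tnfrsf10b were 1.41-fold (adjusted p = 0.0112) and 1.3-fold higher (adjusted p = 0.00442), and the adaptor kinase gene Ripk1 was 1.13-fold higher (adjusted p = 0.00748). In p16 cells none of the 7 was called by edgeR, and 4 had an unadjusted p under 0.05, as had 3587 of all 14572 genes tested.

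Downstream of the mitochondria, 1 of 14 apoptosome and caspase genes rose and 4 fell in p21 cells, with a median log2 fold change of -0.149. Together that is near the 39.9% of all genes called in this comparison. The caspase gene Casp2 was at 0.764 of its control level (13.8 ± 0.708 against 18.1 ± 1.36 CPM, adjusted p = 0.00237), and Apaf1, the scaffold of the apoptosome, at 0.831 (adjusted p = 0.0127). Dffa, which encodes the inhibitor of the apoptotic nuclease, was 1.18-fold higher (adjusted p = 0.0129). Cycs, the cytochrome c gene, was at 115.3 ± 5.49 CPM in p21 cells and 115.0 ± 15.3 CPM in control cells. Of 5 genes for inhibitors of apoptosis, Birc5 (survivin), which also serves in mitosis, fell to 0.457 of its control level in p21 cells (adjusted p = 1.31e-05) and to 0.716 in p16 cells (adjusted p = 0.00855). The cycling marker Mki67 fell with it, at 92.3 to 114.5 CPM in p21 cells and 166.8 to 191.0 CPM in p16 cells, against 247.5 to 281.2 CPM in control cells. Of 3 channel genes of the outer mitochondrial membrane, Vdac2, whose protein binds BAK, was 1.16-fold higher (adjusted p = 0.0209) and Vdac3 at 0.895 of its control level (adjusted p = 0.0255) in p21 cells.

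**Figure D5:**
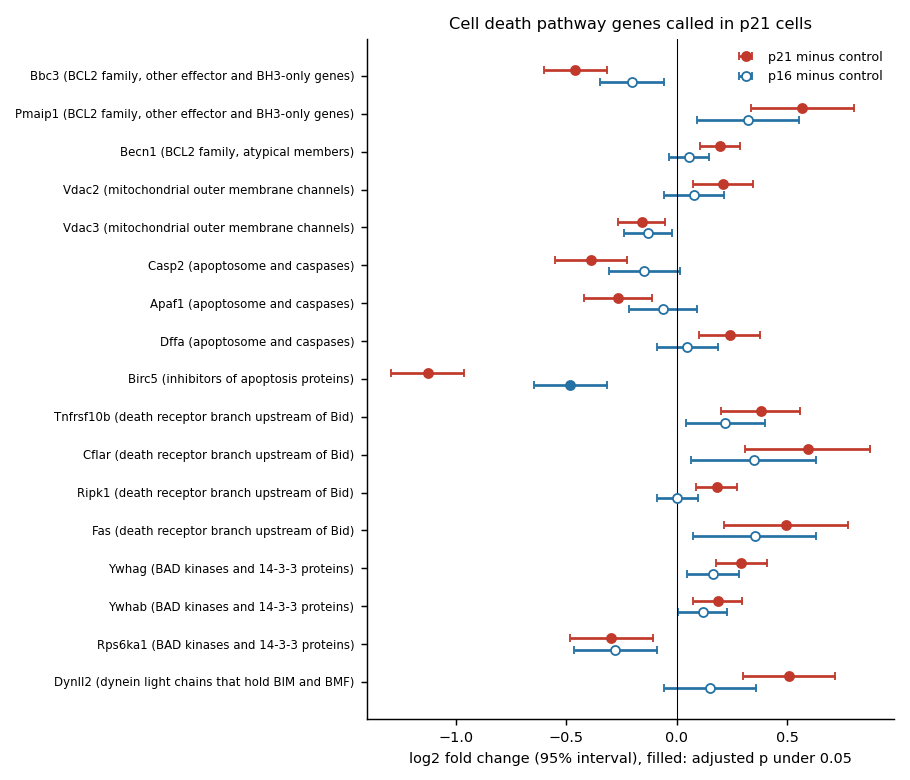
Log2 fold change with its 95% interval for pathway genes called in p21 cells (at most 4 a list, from those of lowest adjusted p, not all of them drawn), for p21 minus control (red) and p16 minus control (blue), with filled points for an adjusted p under 0.05. Birc5 is the one gene filled in both, and lies lowest.

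None of the 6 genes for turnover of MCL1 and BIM was called in p21 cells by edgeR (1 at an unadjusted p under 0.05), and none of the 3 FOXO genes (1 at an unadjusted p under 0.05). Of all 14572 genes tested, 7088 had such an unadjusted p in p21 against control cells. Foxo3 was at 22.1 ± 0.918 CPM in p21 cells, 22 ± 0.98 CPM in p16 cells and 23.5 ± 0.758 CPM in control cells. Dynll2, the dynein light chain gene whose protein holds BMF, was 1.42-fold higher in p21 cells (140.9 ± 11.1 against 99 ± 11.4 CPM, adjusted p = 0.00221) and 1.28-fold higher than in p16 cells (adjusted p = 0.0346), while Dynll1 was at 248.3 ± 7.17 against 252.6 ± 5.67 CPM in control cells. Of 15 genes for BAD kinases and 14-3-3 proteins 2 rose and 3 fell in p21 cells, no larger a share than the 39.9% of all genes called. The 14-3-3 genes Ywhag and Ywhab were 1.22-fold (adjusted p = 0.0019) and 1.14-fold higher (adjusted p = 0.0145), and the kinase gene Rps6ka1 was at 0.814 of its control level (adjusted p = 0.0187).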

How the data were processed

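RNA of 9 samples of mouse embryonic fibroblasts was sequenced from TruSeq version 2 libraries, per the labels' protocols, and groups and replicate numbers were taken from the sample titles. The deposited values are whole-number read counts per gene symbol, not normalised by the authors. Reads were handled with featureCounts 1.4.6 of the Subread package, Bowtie2 2.2.6 and TopHat2 2.0.14 on mm10, per the submitters' processing notes. Neither the annotation, the strand setting nor the treatment of multi-mapping reads is stated.

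Counts were filtered with filterByExpr, scaled with TMM and tested by quasi-likelihood in edgeR 4.0.16 (R 4.3.3), in a single fit of 3 group means to 9 libraries, with Benjamini-Hochberg adjustment over 14572 genes and a threshold of 0.05. Standard errors were derived from the F statistic, and intervals from its total degrees of freedom, which include those gained by sharing the spread across genes. The fit was also run on simulated counts. These held no difference between replicates, and so cannot decide between fits with and without a replicate term. Positions and exon lengths come from GENCODE M21 (GRCm38, also called mm10). Alternatives were DESeq2 1.42.0, other scalings, no filter, fits of the 2 groups compared, a replicate block, a replicate 3 term, replicates 1 and 2 only, and each library left out.

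Same-numbered libraries' deviations from their group means correlated at 0.25, 0.11 and 0.55 for p16 and control cells and 0.16, 0.29 and 0.48 for p21 and p16 cells. All were above the limit of 0.1 and so counted as paired by that rule, which for replicates 1 and 2 is no evidence of pairing. For p21 and control cells they did not all pass (0.18, 0.025 and 0.49). Replicate 3 correlated with replicate 3 in every comparison, and negatively with unlike numbers. For replicates 1 and 2 these correlations cannot decide the pairing, because deviations from a group mean cancel within the group. A shift shared by replicate 3 alone would by itself push the correlations among replicates 1 and 2 upward, for like and unlike numbers. Control replicate 1 correlated at 0.3 with p16 replicate 2 and at 0.36 with p21 replicate 2. No libraries were merged, since within groups they differed by more than sampling noise (chi-square over its degrees of freedom, 10.37 to 101.2).

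The 10 members and all lists were chosen with earlier results of these data known. Named genes are the members, the label checks, Mki67, and of each pathway list up to 4 called genes by lowest adjusted p and the most abundant gene, and some that this rule names are not reported here. Other genes are named as limits or as markers. The motifs were chosen during the analysis, and other motifs were also looked at and are not reported.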

Additional observations from a re-analysis of the deposited data

How the results depend on the processing

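Bcl2l2, Bid and Bok kept their calls between p21 and control cells under all 14 alternatives. Of 420 member fold changes under alternatives, 352 kept direction and side of the threshold, 30 lost a call, 19 gained one and 19 changed sign, none of the last with a call. The cause of these shifts was not tested, but fits that leave out a library have fewer samples.

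For p21 against control cells, 1 member was lower, and 2 were with library sizes only, DESeq2, the replicate block, the replicate 3 term or replicates 1 and 2 only. With 1 library left out, members called numbered 2 to 4 higher and 1 to 2 lower, and pathway genes 5 to 12 lower.

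For p16 against control cells, members higher and lower numbered 2 and 1 with the replicate block and with the replicate 3 term, and 0 were higher with replicates 1 and 2 only. Pathway genes higher and lower were 3 and 3 with DESeq2, 4 and 3 with the block, 6 and 4 with the replicate 3 term, 1 higher with replicates 1 and 2 only and 2 lower with library sizes only. Over all genes, 520 rose and 532 fell, against 932 and 876 by DESeq2, 1252 and 1221 with the block, 1322 and 1323 with the replicate 3 term, 340 and 253 with replicates 1 and 2 only and 299 and 256 in the fit of the 2 groups compared. With 1 library left out, 156 to 488 genes rose and 66 to 385 fell, 0 to 1 members rose and 0 to 1 pathway genes rose.

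For p21 against p16 cells, 3 members were higher with the block and with the replicate 3 term. Pathway genes higher and lower were 11 and 6 with the block, 13 and 6 with the replicate 3 term and 2 and 1 with replicates 1 and 2 only, with 5 lower by DESeq2. Over all genes, 902 were higher and 968 lower, against 1715 and 1781 with the block and 1797 and 1825 with the replicate 3 term. With 1 library left out, 284 to 839 genes were higher and 316 to 951 lower, 0 to 2 and 0 to 1 members, and 0 to 1 and 1 to 2 pathway genes.

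Sign changes touched members near 0 or with few reads. Between p16 and control cells, the log2 fold change of Mcl1 was -0.0184 with library sizes only and -0.0151 with replicates 1 and 2 only, and that of Bmf was 0.0989 with replicates 1 and 2 only. Between p21 and p16 cells Bmf was at -0.313 with replicates 1 and 2 only and -0.0155 with the replicate 3 term. With 1 library left out, log2 fold changes ran from -0.682 to 0.0746 for Bmf between p21 and control cells. Between p16 and control cells they ran from -0.0486 to 0.262 (Bcl2l1), -0.00609 to 0.0324 (Mcl1), -0.0993 to 0.0572 (Bak1) and -0.656 to 0.0426 (Bmf). Between p21 and p16 cells they ran from -0.037 to 0.107 (Bcl2), -0.199 to 0.0677 (Bcl2l11) and -0.258 to 0.263 (Bmf).

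In p21 against control cells the numbers were not taken to pair, although replicate 3 correlated there too (0.49). The block gave adjusted p = 0.00191 for Bcl2l1 and 0.00107 for Bcl2l11, which were then called, and 0.0609 for Bad, which was not. It moved no other member call there. Per kb of the longest transcript, 21 of 30 levels moved by more than 1 SD.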
